A study of Mus musculus with 16 samples.

Results

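Complement is a cascade of plasma and cell-surface proteins that marks particles for removal and calls in immune cells. The classical branch starts when the C1q complex, built of chains from C1qa, C1qb and C1qc, binds its target; the alternative branch is driven by factor B (Cfb); and both act through C3. The receptor C3ar1 reads C3a, a cleavage product of C3, and C5ar1 reads C5a, which is cut from C5 further down the cascade. Much circulating complement is made in the liver, whereas C1q chains are typically products of macrophages, and fibroblasts can also make complement proteins and the C1 inhibitor encoded by Serping1.

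The 9 complement genes described here are C1qa, C1qb, C1qc, C3, C4b, C3ar1, C5ar1, Cfb and Serping1. They were found by their symbols among the 55573 genes of the deposited count table, each in 1 row, and all 9 passed the filter on low counts. The transcripts, selected by their poly(A) tails, came from the apex of 16 hearts of male mice, 4 in each of 4 groups, and were read as single ends of 50 bp. Wild-type pups had received an adeno-associated virus of serotype 9 (AAV9) on postnatal day 1, and all animals carried such a virus. The virus expressed either GFP or the mouse long noncoding RNA Cardinal (Gm12295) from the cTNT promoter, which is active in cardiomyocytes. As adults the mice underwent transverse aortic constriction (TAC), which overloads the left ventricle, or a sham operation without the ligature. Hearts were taken 4 weeks later. Each group is called by its virus and operation: AAV9-GFP sham and AAV9-Cardinal sham are the unloaded groups, and AAV9-GFP TAC and AAV9-Cardinal TAC the loaded ones. The strain was not given in the sources used here.

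Libraries held between 16441997 and 21904589 counts, the lowest being AAV9-Cardinal sham mouse 4, and between 30.3% and 34.0% of counts came from mitochondrially encoded genes. Cardinal was at 3.42 to 7.24 CPM (counts per 1000000 counts of the library, scaled by the TMM method) in the hearts given AAV9-GFP and at 18.3 to 93.9 CPM in those given AAV9-Cardinal. AAV9-Cardinal TAC mouse 1 stood apart from its group with 93.9 CPM of Cardinal, against 18.3, 19.5 and 20.6 CPM in the other mice. The 8 fibroblast markers of this mouse summed to 990 CPM, against 530, 570 and 573 CPM, and calls that changed without it are given with and without it. Its macrophage markers summed to 204 CPM, against 166, 186 and 150 CPM.

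The members sit in 6 places of the mouse genome (build GRCm38, GENCODE M21), all on the minus strand. C1qb, C1qc and C1qa lie next to each other within 18.7 kb of chromosome 4 (136880129 to 136898803). C4b (chromosome 17, 34728380 to 34743882) and Cfb (34856374 to 34862518) lie in the same 134 kb, and C3 lies apart from them (57203970 to 57228136). C3ar1 is on chromosome 6, C5ar1 on chromosome 7 and Serping1 on chromosome 2. C1qb and C3 are shown as sequence, since they are the members that passed the test after TAC. The RefSeq table used (GRCm38.p6) held promoters of 5 of the 9 members. Each line is the 250 bases before the start of the gene in RefSeq, 5′ to 3′ on the strand of the gene. This start is the GENCODE start for C3 and lies 13 bases before it for C1qb. Capitals mark a match to one of the 6 motifs searched.
C1qb promoter, chr4:136886201-136886450, minus strand: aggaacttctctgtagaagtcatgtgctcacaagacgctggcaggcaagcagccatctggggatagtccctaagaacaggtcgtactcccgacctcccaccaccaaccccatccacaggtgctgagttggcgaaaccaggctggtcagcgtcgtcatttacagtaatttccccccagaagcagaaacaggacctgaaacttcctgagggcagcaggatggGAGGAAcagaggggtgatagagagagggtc
C3 promoter, chr17:57228137-57228386, minus strand: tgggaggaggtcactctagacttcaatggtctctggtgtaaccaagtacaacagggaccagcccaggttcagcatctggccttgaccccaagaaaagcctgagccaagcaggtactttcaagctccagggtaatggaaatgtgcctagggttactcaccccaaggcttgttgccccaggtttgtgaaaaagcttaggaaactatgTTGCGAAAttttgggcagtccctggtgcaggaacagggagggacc

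The letters GAGGAA, a core of the sites of the myeloid factor PU.1, were found 30 to 25 bases before the RefSeq start of C1qb. They were found on the other strand, as TTCCTC, 193 to 188 bases before that of C1qc. Of the windows not shown, that of C1qc holds 151 bases, that of C5ar1 202 and that of C3ar1 4 bases that lie within the gene as GENCODE annotates it, so distances there hold for the RefSeq start only. Either strand of 23.3% of all 32841 promoter windows of this length held these letters. The C3 window held TTGCNNAA, the letters of a C/EBP-type site, 45 to 38 bases before its start, as did 9.57% of all windows. Of the other members, C5ar1 held GAAANNGAA, the core of interferon-response elements (7.13% of all windows), and C3ar1 held TATAAA (12.4% of all windows). The letters of the STAT-type element TTCNNNGAA, found in 7.02% of all windows, and of the NF-kB-type element GGANTTTCC, found in 1.07%, were in none of the 5 members' windows. Both strands were searched, no matches overlapped in these windows, and the matches are a description of letters only.

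Serping1, C3 and C1qa were at the highest levels per length in AAV9-GFP sham hearts. On the scale of CPM per kb of exon, Serping1 was at 34.7 ± 1.82 (SD, n = 4), C3 at 31.5 ± 5.68 and C1qa at 31.2 ± 3.24, and the ranges of these neighbours overlapped. C1qb followed at 25.0 ± 1.11 and C1qc at 12.8 ± 1.70, each with a range apart from its neighbours in the order. C4b, which encodes the C4 component cleaved by C1, was at 2.74 ± 0.687 CPM per kb, and C5ar1, the receptor of C5a, at 1.74 ± 0.199, with overlapping ranges. C3ar1, the receptor of C3a, was at 0.826 ± 0.209 and Cfb at 0.661 ± 0.343 CPM per kb, again with overlapping ranges. In AAV9-GFP TAC hearts C3 stood below C1qa and C1qb, at 19.8 ± 0.899 CPM per kb, beside 35.7 ± 2.59 and 29.6 ± 2.17 for these C1q chains. In the hearts of the other groups Serping1 or C1qa came first and Cfb last.

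**Figure D1:**
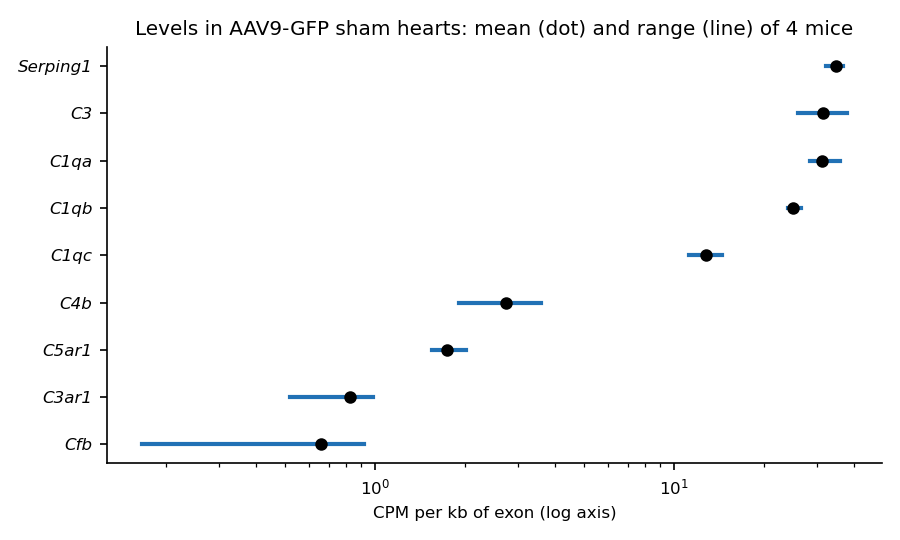
Level of each complement gene in AAV9-GFP sham hearts, in CPM per kb of exon on a log axis, with the mean (dot) and the range of 4 mice (line). Serping1, C3 and C1qa overlap at the top (34.7, 31.5 and 31.2 on average), and C3ar1 and Cfb lie below 1.

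Markers of cells that can make complement were checked in the same libraries. The heart apex carried its own markers, with 8 cardiomyocyte markers summing to between 29796 and 43401 CPM over the 16 mice. Hepatocyte markers were at or near 0: Alb, Apoa1 and Fga had no count in any mouse, and the 5 markers summed to at most 0.418 CPM. Adipocyte markers summed to at most 0.796 CPM, with Lep, Ucp1 and Retn at 0 in every mouse. Neutrophil markers summed to at most 5.13 CPM, with Ly6g at 0 in every mouse, and the 8 lymphocyte markers to at most 2.35 CPM. Mesothelial markers summed to between 3.81 and 13.1 CPM. Macrophage markers, 12 in number and all with counts, summed to between 154 and 179 CPM in AAV9-GFP sham hearts and between 160 and 214 CPM in AAV9-GFP TAC hearts.

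The first question was how pressure overload moved the complement genes in hearts given the GFP virus. C3, the central component, fell after TAC. Its level was 141, 178, 195 and 134 CPM in sham hearts and 97.9, 107, 98.3 and 104 CPM in TAC hearts. All TAC hearts lay below all sham hearts, and the TAC hearts were close to each other. The mean went from 162 ± 29.2 to 102 ± 4.63 CPM (SD, n = 4), a log2 fold change of -0.67 ± 0.13 (SE) and a ratio of 0.630, with an adjusted p of 0.0032 in edgeR's quasi-likelihood test. The call held when each of the 16 mice was left out in turn, with adjusted p of at most 0.025 over all alternatives tried.

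C1qb was the other member past the threshold. It was at 26.4, 28.8, 26.2 and 27.4 CPM in AAV9-GFP sham hearts and at 29.8, 34.5, 33.9 and 30.6 CPM in AAV9-GFP TAC hearts. The groups did not overlap, though the gap between the highest sham and the lowest TAC heart was small. The log2 fold change was 0.24 ± 0.072 (ratio 1.18, edgeR adjusted p = 0.03). The call was lost without AAV9-GFP sham mouse 1, 3 or 4 and without AAV9-GFP TAC mouse 3 or 4, with adjusted p of 0.075, 0.081, 0.054, 0.096 and 0.074 by edgeR, and without the filter on low counts (0.06).

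The other C1q chains had values of the same size that did not pass. C1qa was at 30.9, 31.8, 37.3 and 29.6 CPM in sham and 33.6, 37.5, 40.2 and 37.3 CPM in TAC hearts. These groups overlapped through the sham heart at 37.3 CPM, and the log2 fold change was 0.20 ± 0.091 (edgeR adjusted p = 0.16). C1qc was at 21.7, 28.1, 27.1 and 22.3 CPM in sham and 25.1, 31.6, 29.3 and 28.7 CPM in TAC hearts, with a log2 fold change of 0.21 ± 0.11 (edgeR adjusted p = 0.23). The protein complex holds the C1q chains together. In CPM over the 16 mice, C1qa over C1qb ranged from 0.989 to 1.43 and C1qa over C1qc from 1.13 to 1.45. C1qb over C1qc ranged from 0.966 to 1.42.

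Serping1, C4b and the receptors also stayed within the threshold in AAV9-GFP hearts. Serping1, the inhibitor of C1r, C1s and the lectin-pathway proteases, was at 80.2, 82.3, 85.1 and 75.1 CPM in sham and 80.5, 106, 84.3 and 86.1 CPM in TAC hearts, where 1 heart stood high and the rest lay within or near the sham values. Its log2 fold change was 0.15 ± 0.1 (edgeR adjusted p = 0.36). C4b was at 15.7, 15.4, 20.4 and 10.9 CPM in sham and 14.6, 17.9, 18.3 and 18.0 CPM in TAC hearts (log2 fold change 0.14, 95% interval -0.35 to 0.63). The TAC hearts all fell inside the range of the sham hearts. C3ar1 was at 3.69, 4.23, 4.07 and 2.25 CPM in sham and 3.26, 4.49, 5.12 and 6.39 CPM in TAC hearts, and 3 of the 4 TAC hearts were above every sham heart. Its log2 fold change was 0.43 (interval -0.048 to 0.92). C5ar1 was at 3.97, 5.19, 4.36 and 4.35 CPM in sham and 4.50, 4.91, 5.38 and 4.78 CPM in TAC hearts, with overlapping groups and a log2 fold change of 0.13 (interval -0.22 to 0.48).

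Of the 9 members, 1 was higher and 1 lower in AAV9-GFP TAC than sham hearts at an adjusted p under 0.05, beside 8.49% and 8.92% of the 16857 genes tested. In the same contrast 2 members did not overlap between the groups, beside 20.3% of all genes. The share of members that moved was thus near that of all genes. The median log2 fold change was 0.15 over the members and 0.005 over all genes tested. The scaling factors of AAV9-GFP TAC hearts were higher than those of sham hearts by 0.16 on the log2 scale, so values on plain library totals are higher by about that amount. On that scale the log2 difference was -0.49 for C3, 0.40 for C1qb, 0.36 for C1qa, 0.37 for C1qc and 0.30 for Serping1, each at the smallest exact p that the permutation test allows (0.029). With TMM scaling, by the exact two-sided permutation test of 4 against 4 mice, whose smallest p is 0.029, C3 and C1qb reached p = 0.029. After Benjamini-Hochberg adjustment 0 of 36 tests over the members and contrasts passed (0.34 for both). With this smallest p, passing would need most of the 36 tests to reach it at once, so no conclusion is drawn from the adjusted values.

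**Figure D2:**
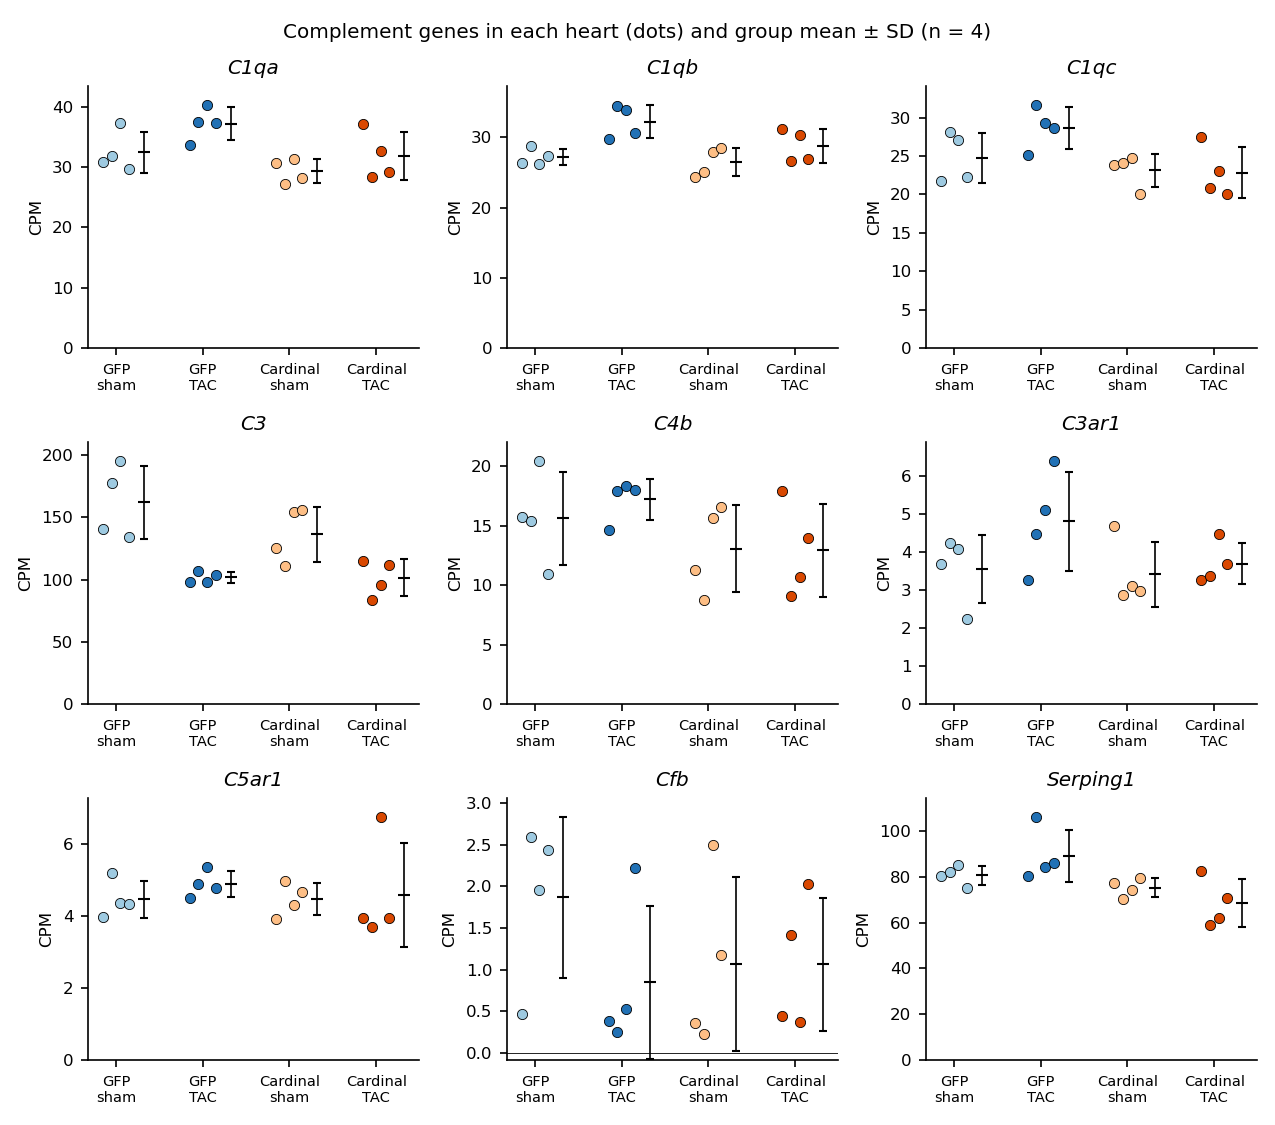
CPM of each complement gene in each of the 16 hearts (dots), with the group mean and SD (n = 4) as a bar beside them and axes that start at or just below 0. C3 in AAV9-GFP TAC hearts (97.9 to 107 CPM) lies below all AAV9-GFP sham hearts (134 to 195 CPM), and Cfb falls into high and low hearts in every group.

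Markers of other cell types moved in the same contrast, and the part of these cell types in the results was not tested. Of the 8 fibroblast markers, 5 rose and 0 fell after TAC with AAV9-GFP. On the log2 scale Postn rose by 2.86, Col3a1 by 1.49, Col1a1 by 1.46, Col1a2 by 1.04 and Lum by 0.74. Tcf21 (0.36), Pdgfra (0.18) and Dcn (0.055) did not pass in edgeR. The list summed to 519 to 588 CPM in sham and 904 to 1169 CPM in TAC hearts. Of the 12 macrophage markers, 1 rose (Fcgr1, log2 fold change 0.60, edgeR adjusted p = 0.015, DESeq2 adjusted p = 0.065) and the list's median log2 fold change was 0.22. Of the 8 cardiomyocyte markers, 6 fell, and their sum went from 41398 to 41905 CPM in sham to 29796 to 35861 CPM in TAC hearts. The endothelial list gave 2 of 8 higher and the mural list 2 of 7 higher, whereas 0 of 5 erythroid, 0 of 3 tested neutrophil, 0 of 3 tested mesothelial markers and the 1 tested lymphocyte marker passed in edgeR, with 0 at an unadjusted p under 0.05 and 0 by DESeq2. In whole tissue, fewer cells of a type and less RNA per cell cannot be told apart.

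Cfb, which encodes the protease of the alternative pathway's C3 convertase, could not be read on its own. On the same strand 79.5% of its exon bases overlap the gene model Gm20547, and 73.0% of its 50-base stretches occur there too. Cfb had 10, 54, 40 and 50 counts in AAV9-GFP sham hearts and 9, 6, 12 and 51 in AAV9-GFP TAC hearts. It had 8, 5, 52 and 18 counts in AAV9-Cardinal sham hearts and 10, 30, 8 and 44 in AAV9-Cardinal TAC hearts. Each group thus held hearts with few and hearts with many Cfb counts.

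Gm20547 showed the opposite pattern, heart by heart. It had 33, 5, 0 and 0 counts in AAV9-GFP sham hearts and 45, 66, 50 and 0 after TAC. With AAV9-Cardinal it had 52, 37, 0 and 8 counts in sham hearts and 49, 0, 31 and 2 after TAC. Cfb held at most 23.3% of the summed counts in 8 hearts and at least 69.2% in the other 8, with none between. The low share occurred with AAV9-GFP in 1 sham and 3 TAC hearts, and with AAV9-Cardinal in 2 sham and 2 TAC hearts. Summed, the counts per heart ran from 26 to 72, and the coefficient of variation within groups went from between 51.8% and 109% for Cfb alone to between 14.5% and 25.4% for the sum. The log2 fold change of TAC with AAV9-GFP was -1.14 ± 0.76 for Cfb alone and 0.15 ± 0.19 for the sum (edgeR adjusted p = 0.35 and 0.67). The sign thus differed between Cfb alone and the sum, neither value passed, and the cause of the change in sign was not tested. How the authors' counting assigned the shared counts is not given in the sources used here.

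**Figure D3:**
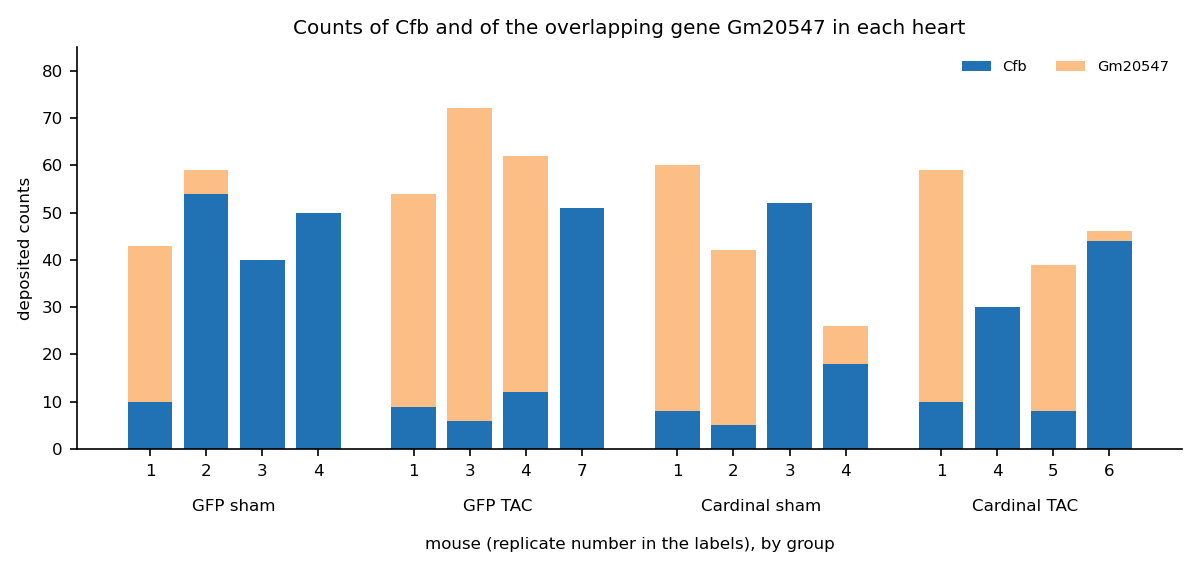
Deposited counts of Cfb and of the overlapping Gm20547, stacked, in each of the 16 hearts, with the mice numbered as in the labels. The stacks run from 26 to 72 counts, and in 8 hearts most of the stack is Gm20547 while in the other 8 most of it is Cfb.

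C4b shares 34.6% of its 50-base stretches with its neighbour and paralog C4a, so its counts are also uncertain. Summing the pair gave a log2 fold change of 0.14 ± 0.22 for TAC with AAV9-GFP, as for C4b alone. The other 7 members shared no 50-base stretch with another annotated gene.

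The second question was the same contrast in hearts given Cardinal. No member passed the test there. C3 was at 125, 111, 154 and 156 CPM in AAV9-Cardinal sham and 115, 83.5, 95.6 and 112 CPM in AAV9-Cardinal TAC hearts. These ranges overlapped narrowly, and the log2 fold change was -0.43 ± 0.13 (edgeR adjusted p = 0.073, DESeq2 adjusted p = 0.027). C1qb was at 24.4, 25.1, 27.9 and 28.5 CPM in sham and 31.2, 26.6, 30.4 and 26.9 CPM in TAC hearts, with overlapping groups and a log2 fold change of 0.12 ± 0.073 (edgeR adjusted p = 0.36).

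The remaining members had intervals that spanned 0 in this contrast. The log2 fold change was 0.12 for C1qa (95% interval -0.08 to 0.32), -0.024 for C1qc (-0.27 to 0.22) and -0.13 for Serping1 (-0.35 to 0.084). It was -0.006 for C4b (-0.51 to 0.50), 0.11 for C3ar1 (-0.39 to 0.60) and 0.038 for C5ar1 (-0.32 to 0.40). For the sum of Cfb and Gm20547 it was -0.16 ± 0.20. By edgeR 0 of 9 members passed, beside 3.10% of all genes higher and 3.38% lower. At an unadjusted p under 0.05 there was 1 member (C3), beside 3682 of the 16857 genes. DESeq2 called 1 member (C3), beside 1406 of these genes. None of the 9 had groups that did not overlap, beside 13.7% of all genes.

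The difference between these TAC responses was tested directly. For C3 it was 0.24 ± 0.19 on the log2 scale (95% interval -0.17 to 0.65, edgeR adjusted p = 0.7), and for C1qb -0.12 ± 0.10 (interval -0.35 to 0.10, adjusted p = 0.72 by edgeR). By edgeR 0 of 9 members passed, beside 0.0119% of all genes. At an unadjusted p under 0.05 there were 0, beside 1722 of the 16857 genes, and DESeq2 called 0, beside 145 genes. A call of C3 with AAV9-GFP and none with AAV9-Cardinal is therefore no shown difference between the viruses. The interval of C3 leaves room for differences nearly as large as the C3 response itself.

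**Figure D4:**
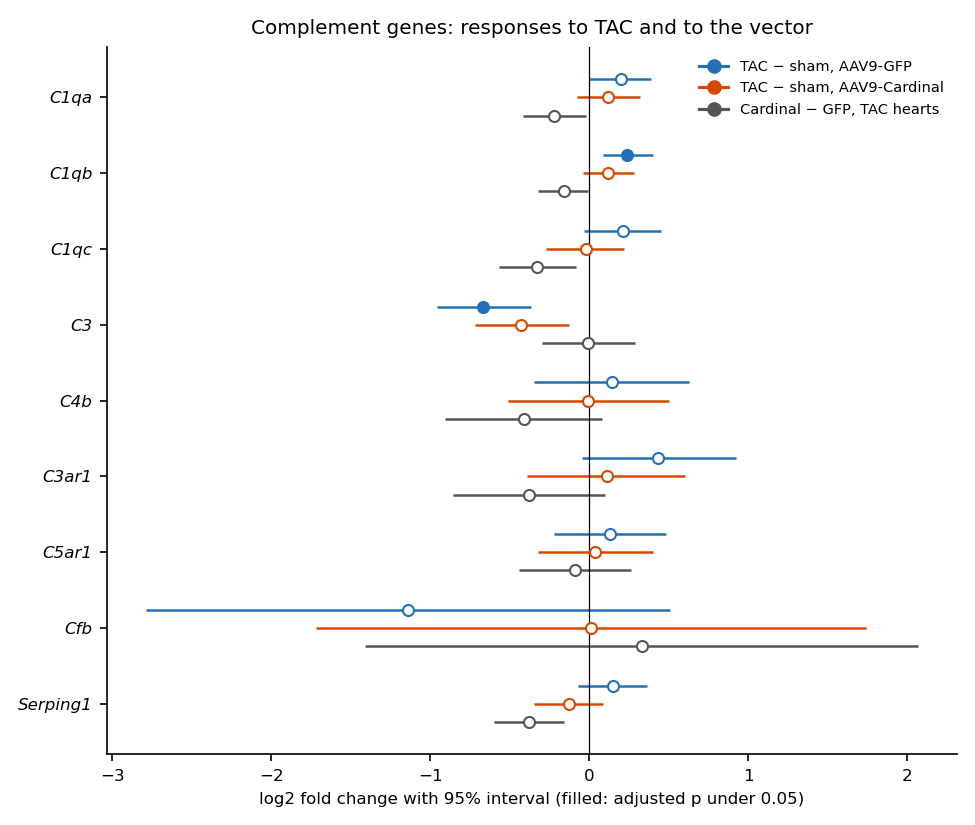
Log2 fold change of each complement gene with its 95% interval for TAC against sham with either virus and for AAV9-Cardinal against AAV9-GFP in TAC hearts; filled points have an adjusted p under 0.05. Only C1qb (0.24) and C3 (-0.67), both for TAC with AAV9-GFP, are filled, and the widest intervals are those of Cfb.

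Next, TAC hearts with Cardinal were set against TAC hearts with GFP. Serping1 had the smallest p of the members. It was at 80.5, 106, 84.3 and 86.1 CPM with AAV9-GFP and at 82.6, 58.8, 62.1 and 71.0 CPM with AAV9-Cardinal. AAV9-Cardinal TAC mouse 1, at 82.6 CPM, lay among the AAV9-GFP hearts and the other 3 lay below them. The log2 difference was -0.38 ± 0.1 (ratio 0.769), with an adjusted p of 0.1 by edgeR and 0.016 by DESeq2. Without that mouse it was -0.48 with an edgeR adjusted p of 0.015.

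C1qc followed, at 25.1, 31.6, 29.3 and 28.7 CPM with AAV9-GFP and 27.5, 20.8, 23.0 and 20.1 CPM with AAV9-Cardinal. Here too mouse 1 (27.5 CPM) was the AAV9-Cardinal heart inside the AAV9-GFP range. The log2 difference was -0.33 ± 0.11 (edgeR adjusted p = 0.19), and without mouse 1 it was -0.43 (edgeR adjusted p = 0.047). C1qa was at 37.1, 28.4, 32.6 and 29.2 CPM with AAV9-Cardinal (log2 difference -0.22 ± 0.091, edgeR adjusted p = 0.26) and C1qb differed by -0.16 ± 0.072 (edgeR adjusted p = 0.3). C3 was the member with the smallest difference, -0.0078 ± 0.13 (95% interval -0.30 to 0.29).

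C4b was at 17.9, 9.07, 10.7 and 14.0 CPM in AAV9-Cardinal TAC hearts, again with mouse 1 highest, and its log2 difference was -0.41 (interval -0.91 to 0.081). C3ar1 was at 3.27, 3.38, 4.47 and 3.68 CPM (-0.38, interval -0.86 to 0.10). C5ar1 was at 3.94, 3.71, 6.75 and 3.96 CPM, with mouse 5 apart from the rest (-0.093, interval -0.44 to 0.26). The sum of Cfb and Gm20547 differed by -0.36 ± 0.19, whereas Cfb alone gave 0.33 ± 0.80.

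By edgeR 0 of 9 members passed in TAC hearts between the viruses, beside 0.101% of all genes. At an unadjusted p under 0.05 there were 4 members (C1qa, C1qb, C1qc and Serping1), beside 2528 of the 16857 genes. DESeq2 called 1 member, beside 435 of all genes. Without AAV9-Cardinal TAC mouse 1, 2 members passed and the number of genes past the threshold went from 17 to 535. None of the 9 had groups that did not overlap, beside 6.77% of all genes. The log2 difference was below 0 for 8 of 9 members, beside 8713 of the 16857 genes. Its median was -0.22 over the members and -0.0065 over all genes. Fibroblast markers summed to 530 to 990 CPM in AAV9-Cardinal TAC against 904 to 1169 CPM in AAV9-GFP TAC hearts, and macrophage markers to 150 to 204 against 160 to 214 CPM. Their part in the values of Serping1 and the C1q chains was not tested.

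In sham hearts, the viruses were compared in the absence of overload. All log2 differences of the members other than Cfb lay between -0.27 (C4b) and 0.00043 (C5ar1), and the sum of Cfb and Gm20547 differed by -0.055 ± 0.20. As in TAC hearts, 8 of 9 members were below 0, beside 8443 of the 16857 genes. The median was -0.099 over the members and -9.8e-05 over all genes. C3 was at 141, 178, 195 and 134 CPM with AAV9-GFP and 125, 111, 154 and 156 CPM with AAV9-Cardinal, which overlapped, and differed by -0.25 (interval -0.54 to 0.045). For C1qa the difference was -0.15 (interval -0.34 to 0.055) and for Serping1 -0.099 (-0.32 to 0.12). By edgeR 0 of 9 members passed, beside 0.0119% of all genes, and DESeq2 called 0. At an unadjusted p under 0.05 there were 0, beside 437 of the 16857 genes. None of the 9 had groups that did not overlap, beside 2.36% of all genes.

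The rest of the pathway was described from a list of 44 other complement genes, of which 27 passed the filter. In 9 of them no mouse had a count: the lectins Mbl1, Mbl2, Fcnb and Colec10, the terminal components C8a, C8b and C9, and the regulators Cfi and C4bp. The other terminal components of the cascade were at or below 0.137 CPM on average (Hc, which encodes C5, and C6), except C7 and C8g, which were tested. C6 had counts in sham hearts only, 7 in each AAV9-GFP sham heart and 0 to 12 with AAV9-Cardinal. Cfd, the protease that activates factor B, was at 0.132 CPM on average, with counts in 4 of 16 mice, all of them TAC hearts. It had 5 counts in AAV9-GFP TAC mouse 4 and 23, 10 and 9 in AAV9-Cardinal TAC mice 1, 5 and 6. C6 and Cfd did not pass the filter and were not tested. C2, the classical counterpart of factor B, was at 0.352 CPM on average, and 38.7% of its 50-base stretches occur in Gm20547. A library with 0 counts allows up to 3 counts, which is 0.126 to 0.195 CPM here and covers counting error only.

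After TAC with AAV9-GFP 3 of the 27 tested genes rose and 3 fell, beside 8.49% and 8.92% of all genes. The counts by role given further on are read against the same shares. Masp1, a protease of the lectin pathway, was at 8.70, 11.0, 10.4 and 7.14 CPM in sham and 21.8, 19.5, 12.4 and 18.4 CPM in TAC hearts, all above the sham hearts (log2 fold change 0.95 ± 0.18, edgeR adjusted p = 0.0018). Cd55, which dissociates C3 convertases on cell surfaces, was at 6.91, 6.53, 5.93 and 6.55 CPM in sham and 9.13, 15.8, 8.14 and 9.44 CPM in TAC hearts. These groups did not overlap, and the log2 fold change was 0.71 ± 0.18 (edgeR adjusted p = 0.013), falling to 0.46 without TAC mouse 3, the highest heart, with the call kept. Cd93, an endothelial and myeloid surface protein once named as a C1q receptor, went from 62.2 ± 11.9 to 95.2 ± 19.3 CPM (0.61 ± 0.15, edgeR adjusted p = 0.011), with overlapping groups.

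The genes that fell included both mouse copies of CD59, the membrane inhibitor of the terminal pore. Cd59a was at 59.5, 69.3, 70.8 and 76.6 CPM in sham and 49.5, 38.8, 47.9 and 47.9 CPM in TAC hearts, with no overlap (-0.59 ± 0.089, edgeR adjusted p = 0.00044). Cd59b was at 3.07, 3.46, 3.28 and 3.57 CPM in sham and 1.97, 1.80, 2.19 and 2.35 CPM in TAC hearts, again with no overlap (-0.69 ± 0.11, edgeR adjusted p = 0.00074). Of the 50-base stretches of Cd59b, 20.1% occur in other genes, and 3.87% of those of Cd59a occur in Cd59b. Colec11, a lectin that can start the lectin pathway, was at 12.3 ± 0.793 CPM in sham and 9.39 ± 1.39 CPM in TAC hearts (-0.39 ± 0.12, edgeR adjusted p = 0.036), a call lost without sham mouse 2, 3 or 4 or TAC mouse 1, 4 or 7 (edgeR adjusted p of up to 0.097). By role, the membrane regulators gave 1 of 6 tested higher and 2 lower, the start of the classical and lectin branches 1 of 9 higher and 1 lower, and the receptors 1 of 7 higher. The soluble regulators gave 0 of 2, the terminal pathway 0 of 2 and the alternative pathway 0 of 1 by edgeR, and 0 by DESeq2. At an unadjusted p under 0.05 they gave 0, 1 and 0, beside 5041 of the 16857 genes.

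With AAV9-Cardinal, 1 of the 27 passed, beside 3.10% of all genes higher and 3.38% lower. Masp1 was at 10.5, 7.34, 9.08 and 8.30 CPM in sham and 19.5, 16.7, 14.2 and 14.1 CPM in TAC hearts, with no overlap (0.87 ± 0.18, edgeR adjusted p = 0.011). Colec11 had a log2 fold change of -0.42 ± 0.12 just outside the threshold (edgeR adjusted p = 0.052) and was called by DESeq2 (0.029). DESeq2 called 2 of the 27, beside 1406 of the 16857 genes. Without AAV9-Cardinal TAC mouse 1 the value of Colec11 was -0.58 (edgeR adjusted p = 0.0058). For Cd59a the value was -0.067 ± 0.089, for Cd59b -0.27 ± 0.11 and for Cd55 0.21 ± 0.18. The direct test of the difference gave 0.52 ± 0.13 for Cd59a (edgeR adjusted p = 0.3), 0.42 ± 0.16 for Cd59b (0.42) and -0.50 ± 0.26 for Cd55 (0.52). None of these differences passed by edgeR, whereas DESeq2 called that of Cd59a (0.52, DESeq2 adjusted p = 0.02).

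Between the viruses in TAC hearts, 0 of the 27 passed by edgeR, beside 0.101% of all genes. At an unadjusted p under 0.05 there were 3, beside 2528 of the 16857 genes. DESeq2 called 1 (Cd59a), beside 435 of all genes. Cd59a was at 52.1, 62.0, 56.6 and 60.0 CPM in AAV9-Cardinal TAC hearts, above all 4 AAV9-GFP TAC hearts (log2 difference 0.33 ± 0.089, edgeR adjusted p = 0.11, DESeq2 adjusted p = 0.021). Without AAV9-Cardinal TAC mouse 1 it was 0.37 and passed by edgeR (adjusted p = 0.044). In sham hearts 0 of the 27 passed by edgeR and 0 by DESeq2. There 1 had an unadjusted p under 0.05, beside 437 of the 16857 genes. For the difference in TAC response 0 passed by edgeR, and 2 had an unadjusted p under 0.05, beside 1722 genes. DESeq2 called 1 for the difference (Cd59a), beside 145 genes. By edgeR 0.0119% of all genes passed in each of these contrasts. Over all genes, the number that passed for the difference went from 2 to 79 without AAV9-Cardinal TAC mouse 1.

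The genes of the list above 10 CPM on average that passed in no contrast were C1s1, Colec12, C7, Clu, Vtn, Cr1l and C1qbp. Clu, whose product clusterin restrains the terminal complex, was the most abundant, at 393 ± 53.1 CPM in AAV9-GFP sham and 416 ± 7.44 CPM in AAV9-GFP TAC hearts (log2 fold change 0.084, 95% interval -0.12 to 0.28). C7, a component of the terminal pore, was at 13.2 ± 2.20 and 9.53 ± 3.02 CPM (-0.47, interval -0.93 to -0.0052, edgeR adjusted p = 0.15), and passed without TAC mouse 4 (-0.67, edgeR adjusted p = 0.036). Colec12, a scavenger lectin, was at 9.46 ± 0.618 and 11.5 ± 0.688 CPM with no overlap between the groups (0.28, edgeR adjusted p = 0.16, or 0.035 with only these groups fitted). C1s1, the C1s protease, had a log2 fold change of -0.23 ± 0.13, and 35.1% of its 50-base stretches occur in other genes. The log2 fold change was 0.10 ± 0.13 for Vtn, which encodes vitronectin. It was -0.096 ± 0.062 for Cr1l, the rodent regulator Crry, and -0.047 ± 0.062 for C1qbp.

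**Figure D5:**
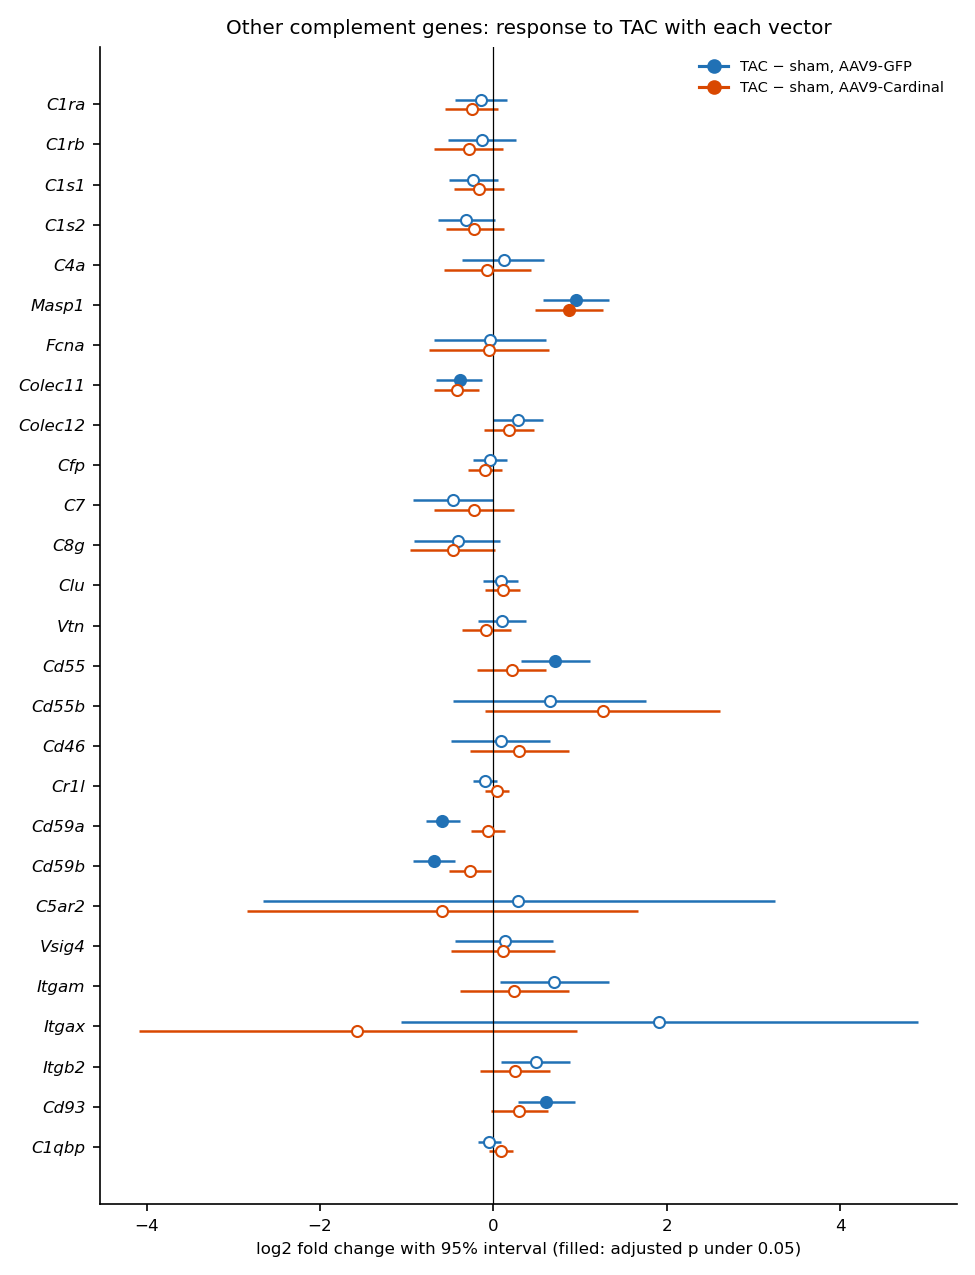
Log2 fold change with 95% interval of the 27 other complement genes tested, for TAC against sham with AAV9-GFP and with AAV9-Cardinal; filled points have an adjusted p under 0.05. Masp1 is filled for both viruses (0.95 and 0.87), while Cd55, Cd93, Colec11, Cd59a and Cd59b are filled for AAV9-GFP only. The difference between the viruses passed for none of them by edgeR and for Cd59a by DESeq2.

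The members also differed from heart to heart within groups. After subtraction of group means from log2 CPM, C3 and C4b had a Pearson r of 0.90 over the 16 mice, against 0.41 before it. C1qa and C1qc had r of 0.76 after and 0.83 before the subtraction. C1qb had lower values, 0.45 after and 0.72 before with C1qa, and 0.45 and 0.63 with C1qc. C4b and Serping1 had 0.71 after and 0.77 before. C5ar1 and C4b, by contrast, had -0.13 and 0.01. These values share libraries and scaling and are given as a description.

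Among 14274 other genes that averaged 1 CPM or more, those whose log2 CPM followed each member most closely over the 16 mice were named as a description, since the highest of so many correlations is high by construction. For Serping1 they were Dcn (r = 0.92), which encodes the fibroblast matrix protein decorin, Meis3 (0.88) and Ccn5 (0.86), and after subtraction of group means Tspo (0.93), Trem2 (0.92) and Dcn (0.90). For C1qa they were Tbc1d25 (0.90), Mmp23 (0.88) and Tyrobp (0.88), a myeloid signalling adaptor, and after subtraction Ino80c (0.88), Tbc1d25 (0.86) and Snx6 (0.86). For C1qb they were F2r (0.94), Tpm3-rs7 (0.90) and Pdgfrl (0.88), and after subtraction F2r (0.93), Reps2 (0.85) and Inpp5d (0.81). For C1qc they were Shc1 (0.87), Ssc5d (0.87) and Vat1 (0.85), and after subtraction Shc1 (0.91), Gng2 (0.88) and Timp2 (0.85). F2r and Shc1 thus led both lists of their member.

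For C3 the nearest genes were Tmem205 (r = 0.90), Hint2 (0.87) and Khk (0.86), and after subtraction Arpc5l (0.86), St3gal2 (0.85) and Map6 (0.84), with none in common. For C4b, C4a led both lists (0.91 and 0.88), and the pair shares sequence. It was followed by Arhgap45 (0.82) and Selenow (0.82), and after subtraction by Tbc1d22a (0.84) and Mttp (0.82). For C3ar1 they were Ptprj (0.85), Rara (0.84) and G6pdx (0.83), and after subtraction Ptprj (0.89), Grrp1 (0.83) and Arhgef40 (0.81). For C5ar1 they were Tma16 (0.72), Ripk1 (0.68) and Sdccag8 (0.68), and after subtraction Sdccag8 (0.81), Htra2 (0.80) and Zfas1 (0.79). For Cfb, whose counts were split with Gm20547, they were the mitochondrial tRNA genes mt-Td (0.84) and mt-Tr (0.80) and Pdxk (0.79), and after subtraction mt-Tq (0.87), Lmbrd1 (0.85) and Lrp5 (0.85).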

How the data were processed

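For each of 16 mice the authors deposited raw counts of reads per Ensembl gene. The submitters' processing notes name FastQC, HISAT2 2.1.0, edgeR 3.26.1 and the build GRCm38; the counting program, its annotation, and its use of strand and of reads with several matches are not given in the sources used here. Each sample was taken as 1 mouse. Samples of a group differed from each other by more than sampling noise (chi-square per degree of freedom 5.49 to 16.4).

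Genes were named with GENCODE M21 (55394 of 55573). Counts were fitted in R 4.3.3 with edgeR 4.0.16 (TMM, filterByExpr leaving 16857 genes, quasi-likelihood test, all 16 mice, 5 contrasts, Benjamini-Hochberg over all genes, threshold 0.05). DESeq2 1.42.0 was an alternative. The methods were tested on simulated data. For single members, log2 CPM (prior count 2) were compared by an exact permutation test, two-sided. Shared 50-base stretches were counted in GENCODE transcripts. Plots used Python 3.11.15 and matplotlib 3.10.9.

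The members and gene lists were chosen with earlier results of these data known. Named were all 9 members; listed complement genes past the threshold in any contrast, or above 10 CPM without passing; and the 3 genes nearest to each member by r. Mice were grouped by the labels, and replicate numbers were not taken as pairs. Some complement genes are not reported here. Sums of Cfb with Gm20547 and C4b with C4a were added after seeing the data.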

Additional observations from a re-analysis of the deposited data

Results flagged for a closer look

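Of 88 groups of 4 hearts examined, 4 for each of 22 named genes, 7 held a heart whose gap to its nearest neighbour took up most of the group's range by Dixon's criterion at 95%. Chance flags about 1 in 20 groups.

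Among the members, C4b was at 14.6 CPM in AAV9-GFP TAC mouse 1 against 17.9 to 18.3 CPM in the other hearts of the group. C3ar1 was at 4.70 CPM in AAV9-Cardinal sham mouse 1 against 2.88 to 3.12 CPM. C5ar1 was at 6.75 CPM in AAV9-Cardinal TAC mouse 5 against 3.71 to 3.96 CPM. Cfb was at 2.22 CPM in AAV9-GFP TAC mouse 7 against 0.252 to 0.525 CPM, and this is the heart of its group in which all 51 summed counts were assigned to Cfb.

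The 3 groups found among the other complement genes all had AAV9-GFP TAC mouse 3 apart. In this heart Colec11 was at 11.5 CPM against 8.40 to 8.87 CPM, Cd55 at 15.8 CPM against 8.14 to 9.44 CPM, and Cd59a at 38.8 CPM against 47.9 to 49.5 CPM. The same heart had the highest sum of fibroblast markers (1169 CPM) and the lowest sum of cardiomyocyte markers (29796 CPM) of the 16, and the part of these in the values was not tested.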

How the results depend on the processing

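The direction and call of C3 for TAC with AAV9-GFP held under all 8 other settings and the 16 fits without 1 mouse (log2 fold change -0.75 to -0.57). Leaving out 1 mouse in turn, 1 to 2 members passed for TAC with AAV9-GFP and 0 to 2 between viruses in TAC hearts, while the other complement genes called were 1 to 2 for TAC with AAV9-Cardinal and 0 to 1 between viruses in TAC hearts (the highest of both without AAV9-Cardinal TAC mouse 1, and of the former also without AAV9-GFP TAC mouse 3). The genes called ranged from 384 to 1436 for TAC with AAV9-Cardinal (1092 with all mice), from 0 to 535 between viruses in TAC hearts (17; the highest without AAV9-Cardinal TAC mouse 1), from 1 to 3 between viruses in sham hearts (2), and for the difference in TAC response from 2 to 79 (2; the highest without the same mouse). Log2 fold changes near 0 changed sign in these fits: for TAC with AAV9-Cardinal C1qc -0.12 to 0.035, C4b -0.20 to 0.13, C5ar1 -0.21 to 0.13 and Cfb -0.51 to 0.95; between viruses in TAC hearts C3 -0.069 to 0.075 and Cfb -0.19 to 1.44; in sham hearts C3ar1 -0.25 to 0.044 and C5ar1 -0.057 to 0.08. The cause was not tested.

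DESeq2 called 1 member (C3) and 2 other complement genes for TAC with AAV9-Cardinal; 1, 1 and 435 members, other complement genes and genes between viruses in TAC hearts; 5 genes in sham hearts; and 145 genes, 1 of them an other complement gene, for the difference. Without the filter on low counts 1 member passed for TAC with AAV9-GFP, 615 genes for TAC with AAV9-Cardinal and 3 between viruses in TAC hearts, and C5ar1 in sham hearts was -0.0052. With at least 1 CPM in 4 mice, 2 other complement genes passed for TAC with AAV9-Cardinal and 35 genes between viruses in TAC hearts. For that contrast 31 genes passed with upper-quartile scaling, 30 without mitochondrial genes and 3 with only the groups compared, where C5ar1 in sham hearts was -0.0018. On library totals without TMM, 6 of the 36 exact tests had p under 0.05, against 2. The sum of Cfb with Gm20547 had the opposite sign to Cfb alone in 4 contrasts. It was 0.15 and -0.16 for TAC with AAV9-GFP and AAV9-Cardinal, -0.36 between viruses in TAC hearts and -0.31 for the difference. Gm20547 also holds 38.7% of the 50-base stretches of C2, and the cause of the change in sign was not tested.

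Same-numbered mice deviated from their group means with correlations of -0.04 to 0.21, against -0.19 to 0.22 for other pairs. Mice numbered 1 had 0.15 for TAC with AAV9-GFP, 0.13 for TAC with AAV9-Cardinal, 0.21 between viruses in TAC hearts and 0.1 in sham hearts. Such ranges cannot decide whether equal numbers mark a pairing. The labels state none, so the numbers were not taken to pair the mice. As an alternative, the replicate block gave each number a term of its own. Numbers 5 and 6 occur only in AAV9-Cardinal TAC and 7 only in AAV9-GFP TAC, so such terms fit these hearts completely. Block values for AAV9-Cardinal TAC thus rest on its mice 1 and 4, and mouse 1 stood apart from its group. They cannot tell an effect of pairing from the loss of these hearts. With the replicate block 1 member (C3) passed for TAC with AAV9-GFP, where the calls of C1qb (0.27, adjusted p = 0.085) and Colec11 (adjusted p = 0.074) were lost, 31 genes and 0 other complement genes for TAC with AAV9-Cardinal, 0 genes between viruses in TAC hearts, and 1 gene each in sham hearts and for the difference. The block turned C1qc to 0.17, C4b to 0.077, C3ar1 to -0.0067 and C5ar1 to -0.14 for TAC with AAV9-Cardinal, C3 to 0.051 between viruses in TAC hearts, and C1qa to 0.0032 and C4b to 0.021 for the difference. Cfb, at 5 to 54 counts per heart, had the widest intervals of the members.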
